A study of Mus musculus with 19 samples.

Results

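Nrcam, Zfp365, Pip5kl1, Tmcc3 and Rcan2 are 5 genes whose signal in the embryonic mouse lens was far higher at E12.5 than at E10.5, and that belong to neither the crystallins nor the usual lists of lens fibre proteins. They were chosen by their log2 signal on the lens arrays in an earlier reading of the same data, and so their lens values below are a description and carry no test. They are 5 of the 18193 genes measured by a probe set naming only 1 gene, and 5 of the 13320 genes with enough signal to be tested. The 5 genes have 14 probe sets (groups of short probes for 1 transcript), and the probe set with the highest mean log2 signal stands for its gene.

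Expression was measured on 19 Affymetrix arrays, 1 per RNA sample, hybridised with biotin-labelled cRNA. All samples came from wild-type embryos of the ICR mouse strain, dissected in PBS and kept in RNAlater, with the day of the plug taken as E0.5. The lens series held lens of E10.5, of E11.5 and of E12.5 (3 arrays each) and whole embryo labelled E10.5 to E12.5 (4 arrays). A second series held tooth germ at E13.5 (3 arrays) and its own whole embryo, labelled E11.5 to E13.5 (3 arrays). No group carried a mutation or a treatment, the whole-embryo controls span several stages and match no single lens stage, and the labels name neither the kind of tooth nor the number of embryos behind an RNA sample. They also do not say whether arrays of a group came from separate litters, so a p-value speaks of the spread among arrays and no more, and their small number limits the precision.

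Between E10.5 and E12.5 the lens placode folds into a vesicle, and the cells at the back of that vesicle leave the cell cycle and elongate into primary fibres. Fibre cells lengthen greatly, pack against one another through adhesion molecules tied by ankyrin and spectrin to the membrane skeleton, and later lose their organelles. NrCAM is an L1-family adhesion molecule that binds ankyrins, and mice lacking NrCAM or ankyrin-B develop disordered fibres and cataract. Zfp365 encodes a zinc finger protein found at the centrosome that binds DISC1. Pip5kl1 encodes a relative of the phosphatidylinositol phosphate kinases that has no kinase activity of its own. Tmcc3 encodes a coiled-coil membrane protein of the endoplasmic reticulum, and Rcan2 encodes a regulator of the calcium-dependent phosphatase calcineurin.

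The genes lie apart from one another in the genome, except that Zfp365 and Tmcc3 share chromosome 10. In GRCm38.p6, Nrcam lies at chr12:44328786-44605194, Zfp365 at chr10:67886105-67912662, Pip5kl1 at chr2:32575226-32583787, Tmcc3 at chr10:94311682-94590954 and Rcan2 at chr17:43801352-44039516. Since the 5 genes rise in the same tissue, their start regions are shown, as RefSeq (GRCm38.p6) gives them. Each window runs from 250 bases before to 50 bases after a transcript start, 5′ to 3′ on the strand of the gene, and the window nearest to the start of the gene was taken, with CG dinucleotides in capitals. The windows are chr12:44328635-44328934 (plus strand) for Nrcam, chr10:67912613-67912912 (minus strand) for Zfp365, chr2:32575468-32575767 (plus strand) for Pip5kl1, chr10:94311699-94311998 (plus strand) for Tmcc3 and chr17:43801102-43801401 (plus strand) for Rcan2.
Nrcam: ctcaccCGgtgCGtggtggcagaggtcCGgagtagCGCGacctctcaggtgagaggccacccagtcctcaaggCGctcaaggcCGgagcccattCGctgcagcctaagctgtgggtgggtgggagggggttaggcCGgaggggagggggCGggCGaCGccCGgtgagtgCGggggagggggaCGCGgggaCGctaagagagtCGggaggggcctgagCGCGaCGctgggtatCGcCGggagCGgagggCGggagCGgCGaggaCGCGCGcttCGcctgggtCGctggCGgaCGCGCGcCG
Zfp365: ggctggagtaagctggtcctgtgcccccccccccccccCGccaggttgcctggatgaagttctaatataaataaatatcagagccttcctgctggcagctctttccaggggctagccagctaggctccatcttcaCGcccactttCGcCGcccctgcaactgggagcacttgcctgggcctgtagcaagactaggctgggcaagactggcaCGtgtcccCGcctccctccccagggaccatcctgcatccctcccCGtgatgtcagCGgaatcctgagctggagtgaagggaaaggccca
Pip5kl1: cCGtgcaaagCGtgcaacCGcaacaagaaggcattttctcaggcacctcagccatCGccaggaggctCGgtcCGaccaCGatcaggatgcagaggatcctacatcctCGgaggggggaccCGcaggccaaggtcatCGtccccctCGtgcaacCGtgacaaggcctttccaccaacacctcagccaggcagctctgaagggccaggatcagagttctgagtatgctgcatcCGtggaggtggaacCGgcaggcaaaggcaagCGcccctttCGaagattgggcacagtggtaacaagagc
Tmcc3: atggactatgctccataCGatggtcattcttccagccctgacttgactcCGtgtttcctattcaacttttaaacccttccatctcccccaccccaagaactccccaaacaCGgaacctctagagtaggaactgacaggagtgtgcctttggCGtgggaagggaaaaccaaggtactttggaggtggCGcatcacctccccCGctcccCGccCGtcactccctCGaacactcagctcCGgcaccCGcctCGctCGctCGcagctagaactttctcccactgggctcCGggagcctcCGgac
Rcan2: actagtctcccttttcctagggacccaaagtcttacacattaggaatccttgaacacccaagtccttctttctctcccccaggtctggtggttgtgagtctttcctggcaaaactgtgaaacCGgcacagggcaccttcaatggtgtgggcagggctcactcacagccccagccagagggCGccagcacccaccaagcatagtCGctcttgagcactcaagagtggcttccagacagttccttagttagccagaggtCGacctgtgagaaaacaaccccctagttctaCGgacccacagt

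The windows differed in base composition. The Nrcam window was 74.0% G or C with 37 CG dinucleotides, and the Rcan2 window was 54.0% G or C with 5. The Zfp365, Pip5kl1 and Tmcc3 windows lay between these, at 61.3%, 60% and 58% G or C with 8, 16 and 16 CG dinucleotides. Over all 32851 windows of this length the median was 52.7% and 7. The 5 genes have 14 such windows in all, and short motifs were looked for in them on both strands. The Maf motif TGCTGA was in 3 of the 14 (21.4%, against 19.5% of all windows), all of them later starts of Tmcc3, and 2 of these windows overlap and hold the same matches. Maf proteins are activators of crystallin genes. The heat shock factor motif GAANNTTC was in 2 (14.3%, against 7.86%), the Sox motif ACAATG in 2 (14.3%, against 12.6%), TATAAA in 2 (14.3%, against 13.6%) and the Ets motif CCGGAA in 0 (against 14.9%). In the windows printed here, Zfp365 holds TATAAA at -185 from the start and Tmcc3 holds GAACTTTC at 15. These are matches of letters, with no measurement of binding.

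The lens and tooth germ labels matched their own markers. The summed intensity of 8 lens markers was 23518 to 45278 on the lens arrays and 1171 to 1353 in the bodies of the lens series, and 4 of 5 tooth germ markers were higher in tooth germ than in body. Neuron markers summed to 287 to 354 on the lens arrays against 12087 to 14160 in those bodies, and Dcx, Snap25, Nefl, Nefm and Ina were at or below the level of absent-target controls on every lens array. That level was 4.71 on the log2 scale, the 95th percentile of 27 controls whose targets the samples lack. Erythroid markers summed to 15158 to 31278 on the lens arrays, against 33805 to 37109 in those bodies. Of markers tested in E12.5 lens against body, 3 of 3 for pigment cells were called higher. Of 6 neural retina markers 3 were higher and 2 lower, and of 5 macrophage markers 2 were higher. Mesenchyme (7 of 8), surface ectoderm (8 of 8), erythroid (4 of 5) and endothelial (2 of 5) markers were lower. Over all genes 16.6% were higher and 26.7% lower. In the lens series 2 arrays stand apart, array 3 of E10.5 and array 1 of E11.5. E10.5 array 3 had 12 of 14 crystallins and 6 of 8 fibre genes more than 1 log2 unit above the mean of its 2 companions, with 159 of 13320 genes that much higher and 25 that much lower. In it γB-crystallin (Crygb) read 13.46, against 4.03 and 3.89 on arrays 1 and 2 and 13.02 to 13.22 at E12.5. E11.5 array 1 had 1170 genes more than 1 log2 unit below its companions and 252 above. The 13 arrays of the lens series also fall into 2 sets by the signal of bacterial control transcripts. E10.5 arrays 1 and 2, E11.5 array 1, E12.5 array 1 and body arrays 2 and 3 are in the high set, and the other 7 are in the low set.

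In the lens, the 5 genes were all highest at E12.5, at different levels. Their means ran from 4.88 (Zfp365) to 6.89 (Tmcc3) at E10.5 and from 7.99 (Rcan2) to 10.16 (Pip5kl1) at E12.5. On every E12.5 array each of them was higher than on any E10.5 array, E11.5 array, body array of the lens series or tooth germ array. Over all tested genes, 16.9% lay that way against E10.5 (23% without E10.5 array 3), 7.9% against E11.5, 19.6% against body and 36.1% against tooth germ, and since the genes were chosen for the rise nothing is read from the comparison. Each E12.5 mean rested on 3 arrays that differed little, with SDs between 0.07 and 0.38, while the SDs at E10.5 and E11.5 ran from 0.55 to 1.74.

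**Figure D1:**
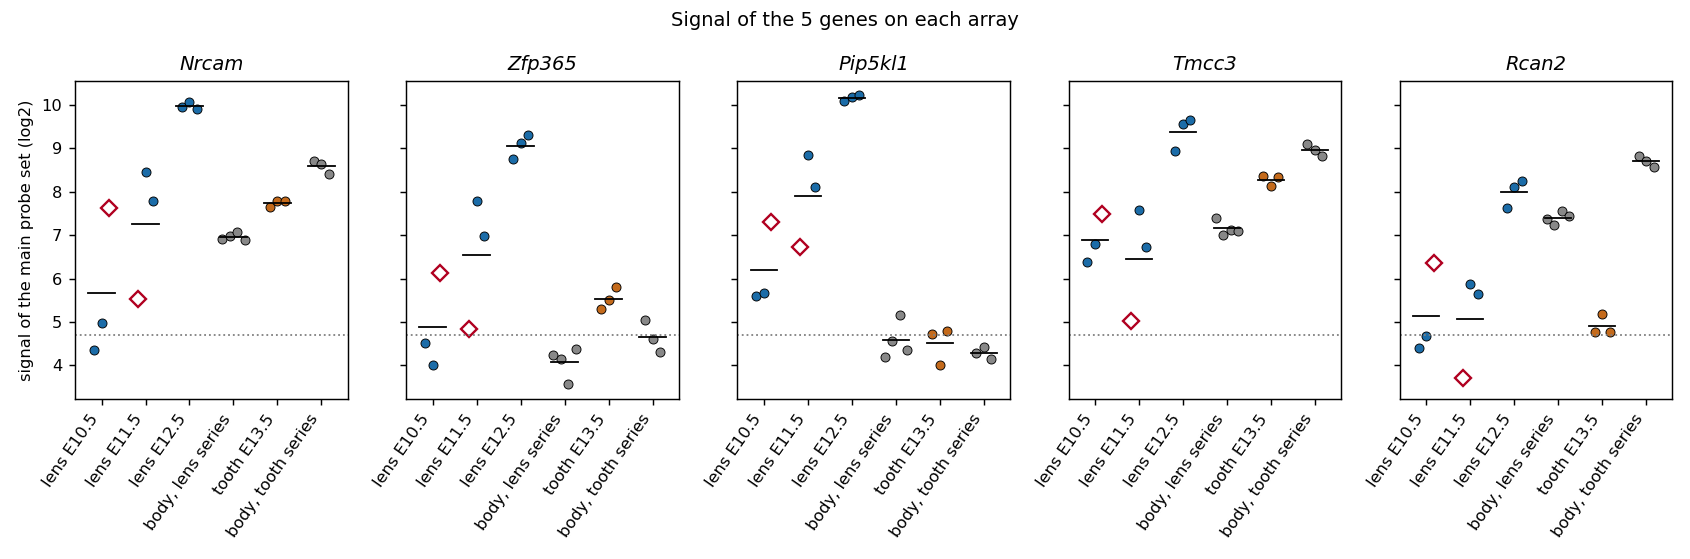
Signal of each gene's main probe set on the log2 scale (y axis) for every array of the 6 groups (x axis); points are arrays, bars are group means, the dotted line is the level of absent-target controls (4.71), and open diamonds mark E10.5 array 3 and E11.5 array 1. The E12.5 lens points lie between 7.61 and 10.21 and above all other lens points of the same gene; Rcan2 is higher still in the bodies of the tooth series.

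Nrcam, the adhesion molecule, read 4.36, 4.99 and 7.63 on the E10.5 lens arrays. Its E11.5 arrays gave 5.54, 8.44 and 7.79, and its E12.5 arrays gave 9.94, 10.06 and 9.91. The bodies of the lens series were tightly grouped at 6.91, 6.98, 7.07 and 6.88. Thus E10.5 arrays 1 and 2 lay near the absent-target level and below every body, and array 3 lay above every body. On a second Nrcam probe set array 3 read 6.45, below every body (6.59 to 6.83). The mean rose by 4.31 log2 units from E10.5 (5.66 ± 1.74, SD, n = 3) to E12.5 (9.97 ± 0.08, SD, n = 3), a 19.9-fold difference and the 9th largest rise of the 13320 genes. Against E10.5 arrays 1 and 2 alone the difference was 5.30, and in the low control-signal set, where E10.5 is represented by array 3, it was 2.36. Against body, the E12.5 lens was 3.01 log2 units or 8.04-fold higher.

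Zfp365, the centrosomal DISC1 partner, read 4.51, 4.0 and 6.12 at E10.5. Values of 4.84, 7.78 and 6.99 followed at E11.5, then 8.74, 9.12 and 9.30 at E12.5. Body read 4.23, 4.14, 3.56 and 4.39, all below the absent-target level, as were E10.5 arrays 1 and 2. Lens array 3 of E10.5 was the only E10.5 array clearly above that level. The mean went from 4.88 ± 1.10 to 9.05 ± 0.28 (SD, n = 3 each), a rise of 4.18 log2 units, or 4.80 without E10.5 array 3. Against body the E12.5 lens was 4.98 log2 units higher, and since body was at background the 31.5-fold ratio depends on the background level.

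Pip5kl1 read 5.61, 5.66 and 7.31 at E10.5. On the E11.5 arrays it gave 6.73, 8.84 and 8.10, and on those of E12.5 10.08, 10.19 and 10.21. Body read 4.19, 4.57, 5.17 and 4.36, on either side of the absent-target level. Of the 5 genes it was the one that stood above body on every lens array already at E10.5, by 1.62 log2 units in the mean and by 1.06 without array 3 (17.7% of tested genes had every E10.5 array above every body). The rise to E12.5 was 3.97 log2 units, from 6.19 ± 0.97 to 10.16 ± 0.07 (SD, n = 3 each), or 4.53 without array 3. At E12.5 it exceeded body by 5.59 log2 units, the 27th largest excess of the 13320 genes. Since 3 of the 4 body arrays were below the absent-target level, this excess and its rank depend on the background level.

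Tmcc3 read 6.39, 6.79 and 7.48 at E10.5, the narrowest spread of the 5 genes at that stage. The E11.5 values were 5.03, 7.59 and 6.73, and the E12.5 values were 8.94, 9.56 and 9.64. Body read 7.40, 7.01, 7.12 and 7.09, so the early lens and the body overlapped. The rise to E12.5 was 2.49 log2 units, from 6.89 ± 0.55 to 9.38 ± 0.38 (SD, n = 3 each), or 2.79 without E10.5 array 3. Array 1 of E11.5 was the lowest lens value of this gene. Against body the E12.5 lens was 2.23 log2 units higher.

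Rcan2, the calcineurin regulator, read 4.41, 4.67 and 6.36 at E10.5. The E11.5 arrays gave 3.71, 5.88 and 5.64, and the E12.5 arrays 7.61, 8.11 and 8.26. Body read 7.38, 7.24, 7.55 and 7.44. Every E10.5 and E11.5 lens array was therefore below every body array, and every E12.5 array was above. Over all tested genes 19.6% had every E12.5 array above every body, and the share below body at E11.5 was not counted. The mean difference from body was -2.26 log2 units at E10.5 (22.7% of tested genes had every E10.5 array below every body), -2.33 at E11.5 and 0.59 at E12.5. The last was small, and 0.22 within the high control-signal set, with the lowest E12.5 array at 7.61 and the highest body at 7.55. The rise from E10.5 to E12.5 was 2.85 log2 units, from 5.15 ± 1.06 to 7.99 ± 0.34 (SD, n = 3 each), or 3.46 without E10.5 array 3.

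**Figure D2:**
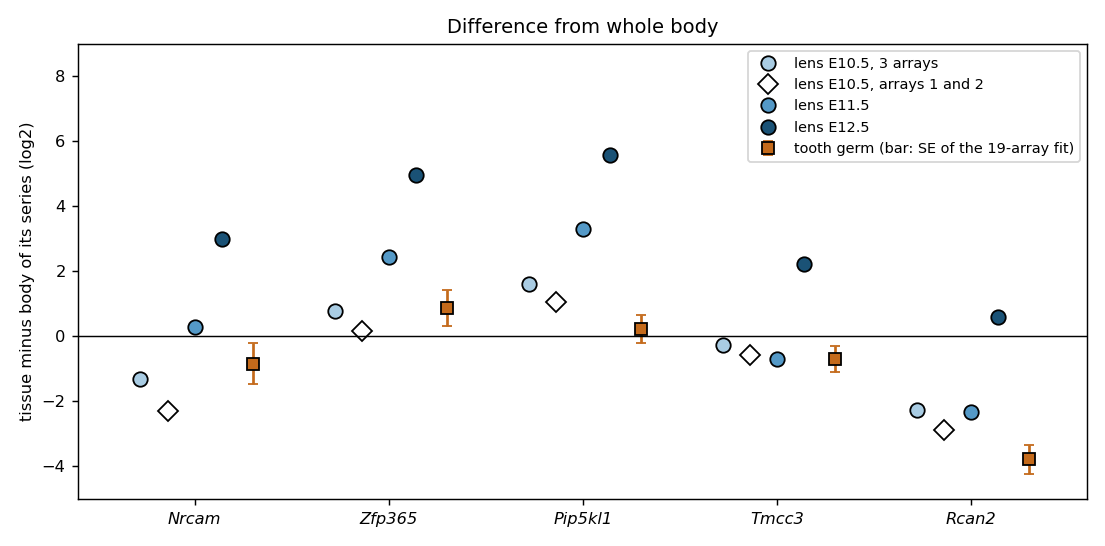
Difference from the whole-body group of the same series (y axis, log2) for each gene (x axis); circles are the lens stages, diamonds are E10.5 without array 3, squares are tooth germ with the SE of the 19-array fit. At E12.5 the lens exceeded body by 5.59 for Pip5kl1 and by 0.59 for Rcan2, and Rcan2 in tooth germ lay at -3.79.

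How much of the rise had been made by E11.5 depended on which arrays were compared. Over all arrays, E11.5 minus E10.5 was 1.60 of the 4.31 log2 units for Nrcam, 1.66 of 4.18 for Zfp365 and 1.70 of 3.97 for Pip5kl1. It was -0.44 for Tmcc3 and -0.07 for Rcan2. The larger part of the rise thus came after E11.5 for each of the 5 genes, with arrays of E10.5 and E11.5 overlapping. Within the low control-signal set, which holds E10.5 array 3 and 2 E11.5 arrays, the step by E11.5 was 0.49 of 2.36 for Nrcam, 1.27 of 3.09 for Zfp365 and 1.16 of 2.89 for Pip5kl1, and it was -0.33 for Tmcc3 and -0.61 for Rcan2. Within the high set, which holds E10.5 arrays 1 and 2 and E11.5 array 1, it was 0.87 of 5.27 for Nrcam, 0.59 of 4.49 for Zfp365 and 1.10 of 4.45 for Pip5kl1, and it was -1.56 for Tmcc3 and -0.82 for Rcan2. With E10.5 array 3 and E11.5 array 1 both left out, the step was 3.45 of 5.30 for Nrcam, 3.13 of 4.80 for Zfp365 and 2.84 of 4.53 for Pip5kl1, and it was 0.57 for Tmcc3 and 1.22 for Rcan2. That choice leaves E10.5 in the high set and E11.5 in the low set, so stage and control signal cannot be told apart in it. E10.5 array 3 stood at 55.8% of the way from the mean of its companions to the E12.5 mean for Nrcam, 38.8% for Zfp365, 37.0% for Pip5kl1, 32.0% for Tmcc3 and 52.9% for Rcan2. The same array has higher crystallin and fibre signal and is in the low control-signal set, and the part of either in the 5 values was not tested.

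Fibre markers and surface ectoderm markers moved over the same stages. The summed intensity of 8 fibre membrane and cytoskeleton genes was 1262 to 10262 at E10.5, 4121 to 9833 at E11.5 and 22133 to 25391 at E12.5, against 409 to 496 in body. Mip, the main membrane protein of fibres, read 8.20, 8.36 and 10.55 at E10.5 and 12.75, 12.66 and 12.67 at E12.5, so that E10.5 array 3 was high for it as for the 5 genes. Pax6, which specifies the lens, stayed between 11.03 and 12.06 on all lens arrays, and Cryaa (αA-crystallin) went from 12.47, 12.55 and 14.15 to 14.39, 14.34 and 14.43. Of the 7 fibre genes tested, 6 were higher at E12.5 than at E10.5, and 11 of 14 crystallins were higher. Of 8 surface ectoderm markers, 6 were lower, and their sum went from 3436 to 5650 at E10.5 to 345 to 437 at E12.5. Of 8 mesenchyme markers, 5 were higher and 2 lower, with a median difference of 1.02, and 2 of 5 tooth germ markers were higher, with a median of 0.67. The mesenchyme sum was 4385 to 5265 at E10.5 and 5341 to 6808 at E12.5. Of 10 neuron markers 0 were called between the stages by limma, with 1 higher and 1 lower at an unadjusted p under 0.05. Of 8 lens markers 3 were higher, and of 5 erythroid and 5 endothelial markers 1 each was higher. Of 5 macrophage markers 1 was higher and 1 lower, and of 3 pigment cell and 6 neural retina markers 0 were called. Over all tested genes 8.91% were higher and 13.2% lower. The part of these lists in the rise of the 5 genes was not tested. In tissue samples such as these, more fibre cells and more RNA per cell cannot be told apart.

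The rise was present in several probe sets of most of the genes. For Nrcam a second probe set followed the main one, with means of 5.07, 6.58 and 8.79 at the 3 stages. The other 2 Nrcam probe sets had lens means between 3.92 and 4.46, at or below the absent-target level, and show no stage course. The second Zfp365 probe set went from 5.02 to 5.71 to 7.33. All 5 Tmcc3 probe sets rose by 2.10 to 2.74 log2 units, with every E12.5 array above every E10.5 array. The second Rcan2 probe set stayed near background, with no stage mean above 5.13. It was 0.63 higher at E12.5 than at E10.5 and 0.73 higher than at E11.5, with every E12.5 array above every earlier one. At so low a level it adds little, and the lens course of Rcan2 rests mainly on 1 probe set. Pip5kl1 has 1 probe set. With the mean over all probe sets of a gene in place of the main one, the rise was 2.17 for Nrcam and 1.74 for Rcan2.

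**Figure D3:**
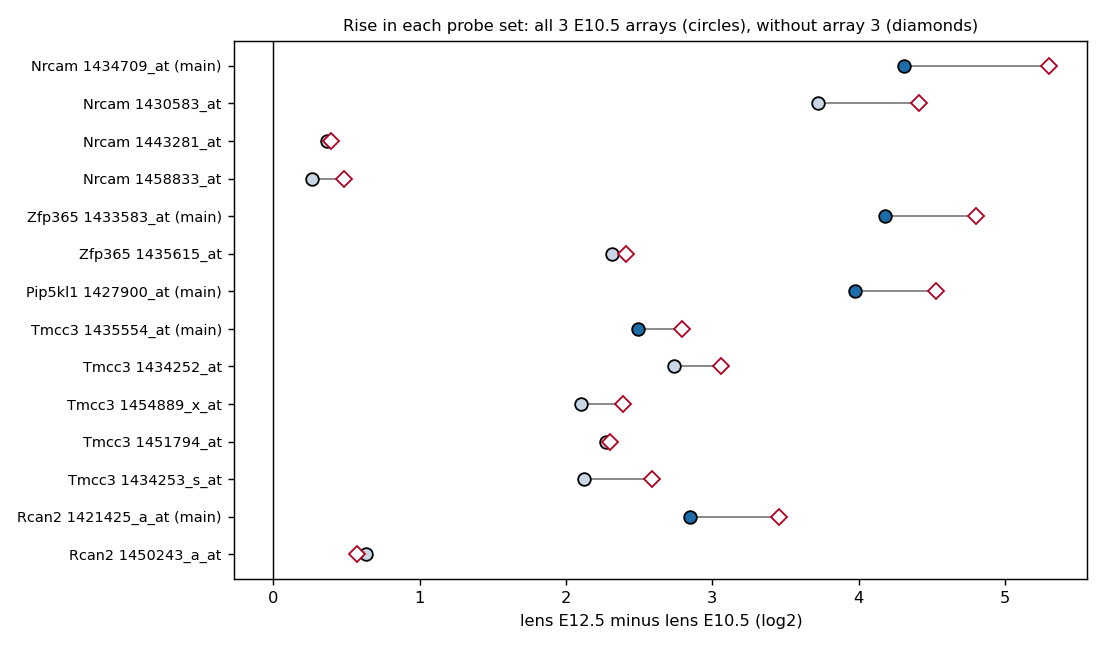
Lens E12.5 minus lens E10.5 (x axis, log2) for each of the 14 probe sets (y axis); filled circles use all 3 E10.5 arrays, dark for the main probe set, and open diamonds leave out E10.5 array 3. All 5 Tmcc3 probe sets lie at 2.10 or above, whereas 2 Nrcam probe sets and 1 Rcan2 probe set lie below 1.

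Tooth germ and the bodies of the tooth series were not used to choose the genes, and there the 5 genes were tested. The signal filter, above log2 5.46 on 3 arrays or more, counted all 19 arrays, however. Outside the lens, Pip5kl1 read at most 5.17, and Zfp365 was above 5.46 only on tooth germ arrays 2 and 3 (5.51 and 5.80). Pip5kl1 and Zfp365 therefore passed the filter only with their lens arrays, on which they had been chosen. Rcan2 showed the largest difference. It read 4.77, 5.19 and 4.78 in tooth germ, little above the absent-target level, and 8.83, 8.71 and 8.56 in body. The difference was -3.79 ± 0.45 (SE) log2 units, 13.8-fold lower in tooth germ (limma, Benjamini-Hochberg adjusted p = 2.2e-06). It was the only 1 of the 5 genes called in the fit over 19 arrays, where 41.9% of the 13320 genes were called, 16.6% higher and 25.3% lower.

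The other 4 genes differed less. Nrcam read 7.65, 7.79 and 7.79 in tooth germ against 8.71, 8.65 and 8.42 in body, a difference of -0.84 ± 0.63 (SE; limma, adjusted p = 0.297). Tmcc3 read 8.35, 8.12 and 8.34 against 9.10, 8.97 and 8.82, a difference of -0.69 ± 0.41 (limma, adjusted p = 0.189). For these 2 genes every tooth germ array was below every body array, as for 31.7% of all tested genes. Zfp365 read 5.30, 5.51 and 5.80 against 5.05, 4.61 and 4.31, a difference of 0.88 ± 0.54 (limma, adjusted p = 0.207), with every tooth germ array above, as for 24.4% of all tested genes. Pip5kl1 was close to the absent-target level in both, with tooth germ values from 4.02 to 4.8, of which 2 were just above it, against 4.29, 4.41 and 4.15 (limma, adjusted p = 0.707). The 19-array fit takes in the wide spread of the early lens arrays. In a fit of the 6 tooth-series arrays alone, where 45.9% of genes were called, 4 of the 5 were called, with limma adjusted p of 0.000855 for Nrcam, 0.00657 for Zfp365, 0.00305 for Tmcc3 and 2.44e-07 for Rcan2. Zfp365 was among the tested genes only because of its lens arrays, so its call is not read as a result. The direction of Tmcc3 depends on the probe set, since a second one was 0.55 higher in tooth germ and the mean over its 5 probe sets differed by 0.03 (limma, adjusted p = 0.947). Probe sets of Nrcam, Zfp365 and Rcan2 also disagreed. Another Nrcam probe set, with means of 6.27 in tooth germ and 5.82 in body, was 0.44 higher in tooth germ with overlapping arrays, while the set that followed the main one in the lens was -1.58 from body. The second Zfp365 probe set, below the absent-target level in the mean of both tissues, differed by 0.01. The second Rcan2 probe set, with means of 4.41 in tooth germ and 4.31 in body, was below that level too. It differed by 0.10 with overlapping arrays, so the Rcan2 difference rests on 1 probe set.

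Markers of several other tissues moved in the same direction as Rcan2. All 10 neuron markers were lower in tooth germ, with sums of 324 to 579 against 6424 to 8016 in body, and 4 of 6 neural retina markers were lower. Of the lens markers 4 of 8 were lower, of macrophage markers 3 of 5, of erythroid markers 3 of 5 and of endothelial markers 2 of 5. Surface ectoderm markers moved the other way, with 7 of 8 higher in tooth germ. Of 8 mesenchyme markers 3 were higher and 1 lower. Of 3 pigment cell markers, 7 fibre genes and 14 crystallins, 1 each was lower and 0 were higher. Over all tested genes 16.6% were higher and 25.3% lower. The bacterial control signal of every tooth germ array (10.54 to 10.87) was above that of every body array (8.55 to 9.36), so that difference and tissue cannot be told apart. The part of any of these tissues in the Rcan2 difference was not tested.

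The bodies of both series differed from each other for 3 of the 5 genes. Tmcc3 was 1.81 ± 0.38 (SE) log2 units higher in the tooth-series bodies (limma, adjusted p = 0.000433), Nrcam 1.63 ± 0.59 higher (limma, adjusted p = 0.0214) and Rcan2 1.29 ± 0.43 higher (limma, adjusted p = 0.0126). Every tooth-series body was above every lens-series body on the main probe sets of these 3 genes. The share of all genes lying that way was not counted, so nothing is read from it. Zfp365 differed by 0.58 ± 0.51 (limma, adjusted p = 0.334) and Pip5kl1 by -0.29 ± 0.41 (limma, adjusted p = 0.555). Of all genes tested, 63.6% were called between these bodies, 31.8% higher and 31.8% lower, so 3 of 5 is close to the share of all genes. Leaving out tooth-series body array 1 or array 2 left Nrcam uncalled, at adjusted p of 0.0592 and 0.0542 by limma. With the mean over probe sets, Tmcc3 (0.40, limma adjusted p = 0.214) and Rcan2 (0.41, limma adjusted p = 0.122) were not called. The second Rcan2 probe set differed by -0.48, with every tooth-series body below every lens-series body. In a fit of the 7 body arrays alone, where 65.9% of genes were called, Zfp365 was called too (limma, adjusted p = 0.029). The Zfp365 means, 4.66 in the tooth-series bodies and 4.08 in the lens-series bodies, were both below the absent-target level. The gene also passed the signal filter only with its lens arrays, so this call is not read as a result. The second Zfp365 probe set differed by -0.24 with overlapping arrays. In these bodies neuron markers summed to 6424 to 8016, against 12087 to 14160 in the lens-series bodies, and retina markers to 3177 to 3461 against 946 to 1086. The labelled stages of the bodies differ too, and series, stage and dissection cannot be told apart.

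The order of the 6 groups on the main probe sets therefore differed between the genes. For Pip5kl1 the 3 lens stages came first and the other 3 groups, all near background, overlapped. For Zfp365 the E12.5 lens was first and the neighbours below it, E11.5 lens, tooth germ, E10.5 lens and both bodies, overlapped pairwise. For Nrcam the order was E12.5 lens, tooth-series body, tooth germ, E11.5 lens, lens-series body and E10.5 lens, and the neighbours overlapped from tooth germ downwards. For Tmcc3 the E12.5 lens (9.38) and the tooth-series body (8.96) overlapped, with the E12.5 array 1 value of 8.94 among the bodies. This overlap was limited to the main probe set. On each of the other Tmcc3 probe sets every E12.5 lens array was above every tooth-series body. For Rcan2 the tooth-series body (8.70) was above the E12.5 lens (7.99) on every array, and tooth germ, E11.5 lens and E10.5 lens overlapped at the bottom. The share of all genes whose E12.5 lens arrays were separate from the tooth-series bodies was not counted. Levels in one series and the other come from 1 deposited table of values, but the bodies differed between the series. Series, stage and dissection cannot be told apart in that difference.

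The genes named for the same families and partners did not rise as a group. From 5 lists with 58 genes, 53 were tested, and between E10.5 and E12.5 lens 5 were higher and 4 lower by limma, with a median difference of 0.02. Over all genes 8.91% were higher and 13.2% lower, with a median of -0.01. Against body at E12.5, 8 were higher and 19 lower with a median of -0.16, against 16.6% higher, 26.7% lower and a median of -0.05 over all genes. In tooth germ against body, 5 were higher and 19 lower, with a median of -0.19, against 16.6% higher, 25.3% lower and a median of -0.04 over all genes.

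In the list of the L1 family and its partners, 2 of 10 tested genes rose and 1 fell in the lens. Ank2, which encodes ankyrin-B, was the largest riser. It read 9.37, 9.16 and 10.19 at E10.5, followed by 10.34, 10.83 and 10.82 a day later and 11.84, 11.48 and 11.73 on the E12.5 arrays. The rise was 2.11 ± 0.23 (SE) log2 units (limma, adjusted p = 2.19e-06), and E10.5 array 3 was again the highest of its stage. Against body, Ank2 was 3.42 ± 0.21 higher (limma, adjusted p = 1.41e-10) and Ank3, ankyrin-G, 1.11 ± 0.19 higher (limma, adjusted p = 9.86e-05). The other 3 L1-family genes were lower than body at E12.5, with differences of -4.31 for Chl1, -2.01 for L1cam and -0.96 for Nfasc (limma, adjusted p = 9.54e-15, 5.43e-08 and 0.000501). Chl1 read 3.32 to 3.66 on the lens arrays, all below the absent-target level, and L1cam between 5.59 and 6.48 with no call between the stages. Nrp2, a semaphorin receptor, rose by 0.87 in the lens, and its E12.5 difference from body was -2.25.

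Among DISC1 and centrosome partners 0 of 7 rose and 2 fell in the lens, namely Nde1 (fell by 1.2 ± 0.21, SE; limma, adjusted p = 0.000302) and Pcnt, the scaffold pericentrin (-0.64 ± 0.18; limma, adjusted p = 0.0152). At an unadjusted p under 0.05, 1 was higher and 2 lower, and without E10.5 array 1 or E12.5 array 3 the number lower was 1. Fez1, a DISC1-binding protein of axons, differed from body by -3.25 in the E12.5 lens and by -2.26 in tooth germ. Pafah1b1 (LIS1, a dynein regulator) differed from body by 0.35 (limma, adjusted p = 0.0427) and Ninl by -1.26 (limma, adjusted p = 0.05), each with arrays of the groups overlapping, and the Pafah1b1 call was lost in the fit of the compared arrays alone and without E12.5 array 1 or 2 or body array 1, 2 or 3. Zfp365 was thus higher at E12.5 by 4.18 while no tested partner on this list was called higher.

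Among 14 phosphoinositide kinases and phosphatases 1 rose and 1 fell. At an unadjusted p under 0.05, 2 were higher and 3 lower. The number lower was 3 without E10.5 array 3, 2 without E12.5 array 1, 2 with a replicate block and 0 within the low control-signal set. Pip5k1b, a type I kinase that makes PI(4,5)P2, read 6.41, 6.49 and 6.97 at E10.5 and 7.62, 7.90 and 7.79 at E12.5, a rise of 1.15 ± 0.17 (SE; limma, adjusted p = 7.08e-05), and it stood 0.81 above body. The phosphatase gene Inpp5b fell by 1.2 ± 0.19 (limma, adjusted p = 0.000104). Pip5k1c, another type I kinase, differed by 0.21 ± 0.23 (limma, adjusted p = 0.595). Synj1, a phosphatase of synaptic membranes, was -1.11 from body in the E12.5 lens and -1.40 in tooth germ. In tooth germ Pip5k1b differed from body by -0.05 ± 0.17 (limma, adjusted p = 0.846).

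Among the TMCC family and proteins that shape the endoplasmic reticulum, 2 of 11 rose and 0 fell by limma, with 2 higher and 2 lower at an unadjusted p under 0.05. The 2 became 1 when E10.5 array 1 or 2, or any of the 3 from E12.5, was left out. Lnpk, which encodes lunapark, a protein of reticulum junctions, read 8.20, 8.56 and 8.71 at E10.5 and 9.57, 9.75 and 9.69 at E12.5. The rise was 1.18 ± 0.20 (SE; limma, adjusted p = 0.000227), and the E12.5 lens was 1.23 above body while tooth germ differed from its body by -0.90. Tmcc2 rose by 0.68 ± 0.23 (limma, adjusted p = 0.0433) and differed from body by -1.21. Tmcc1 differed by 0.43 ± 0.26 between the stages (limma, adjusted p = 0.272). Rtn1 and Atl1, membrane-shaping proteins abundant in neurons, differed from body by -4.73 and -3.04, and so moved with the neuron markers in that comparison.

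For calcineurin, its regulators and NFAT 0 of 11 tested genes were called in either direction between the stages by limma, with 2 higher and 1 lower at an unadjusted p under 0.05. Rcan1, the closest relative of Rcan2, read 9.43, 9.58 and 9.51 at E10.5 and 9.78, 10.23 and 10.02 at E12.5, a difference of 0.50 ± 0.19 (SE; limma, adjusted p = 0.0623). Against body, Rcan1 was 1.34 ± 0.18 higher in the E12.5 lens (limma, adjusted p = 3.7e-06) and differed from it by -0.85 in tooth germ (limma, adjusted p = 0.00127). Nfatc4, a calcineurin-dependent transcription factor, differed from body by -1.32 in the lens and by 1.08 in tooth germ. Ppp3ca, a catalytic subunit of calcineurin, differed from body by -0.53 in the lens (limma, adjusted p = 0.0429), with arrays of the groups overlapping. Only 1 of the list was called lower there without any 1 of 5 arrays (E12.5 array 1 or 3, or body array 1, 2 or 4).

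**Figure D4:**
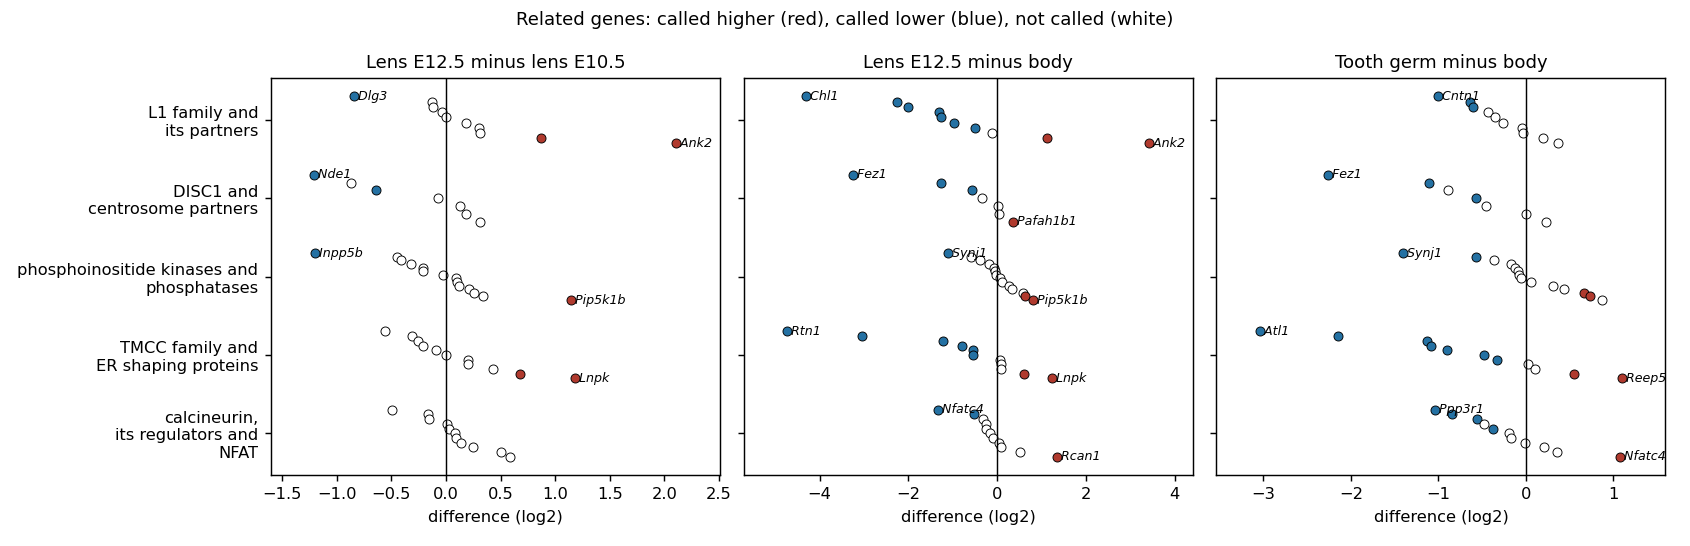
Differences on the log2 scale (x axis) of the 53 tested related genes in 5 lists (y axis) for 3 comparisons, lens E12.5 minus lens E10.5, lens E12.5 minus body and tooth germ minus body; red is called higher and blue called lower at an adjusted p under 0.05, white is not called, and the outermost called genes are named. Ank2 stands farthest right in both lens comparisons, at 2.11 and 3.42.

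Some other genes followed the 5 genes closely over the 19 arrays. Likeness was the mean absolute difference between centred log2 profiles, and the nearest 3 of the 13320 genes are named for each. For Nrcam they were Bmper (0.49), a BMP-binding secreted protein, Prkaa2 (0.55), a catalytic subunit of AMP-activated kinase, and Pcp4 (0.59), against a median of 1.26 over all genes. For Zfp365 they were Efcab1 (0.43), A830021M18Rik (0.52) and Bfsp2 (0.53), the beaded filament protein of lens fibres, against a median of 1.55. Bfsp2 read 6.35, 6.25 and 6.88 at E10.5, 7.45, 8.37 and 7.77 a day later and 10.16, 10.03 and 9.65 at E12.5. For Pip5kl1 they were Tmem40 (0.38), Grifin (0.43), a galectin-related lens protein, and Sowaha (0.45), against a median of 1.94. For Tmcc3 they were Fgfrl1 (0.40), an FGF receptor relative, Tmem9b (0.42) and Scn11a (0.42), against a median of 1.06. For Rcan2 they were Reep1 (0.48), a protein of the tubular endoplasmic reticulum, Lyve1 (0.59) and Add2 (0.60), a membrane skeleton protein, against a median of 1.47. Without E10.5 array 3 the nearest 3 were the same genes for Nrcam, Zfp365 and Tmcc3. For Pip5kl1 Bfsp1 (0.41), a beaded filament protein, then took the place of Sowaha, and for Rcan2 the order was Lyve1 (0.49), Reep1 (0.50) and Zic5 (0.60). The arrays share stage, series and the 2 lens arrays that stand apart, and nothing about shared control follows from a small distance.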

How the data were processed

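Gene expression was measured in lens, tooth germ and whole-embryo samples on 19 arrays. The authors deposited 1 intensity value for each probe set and array, from 5.4 to 25043.5 on a linear scale. The submitters' processing notes name RMA and affy 0.7, with no role or order. Here log2 was taken, with no further normalization. The platform annotation of 2016 gives 1 gene for 34945 of the 45101 probe sets, and 34741 of these matched RefSeq GRCm38.p6 by Entrez ID. Tested genes had a main probe set above 44.1 (log2 5.46), the overall median, on 3 arrays or more. No pair of arrays shared over 2.04% of values exactly. Arrays within a group correlated at 0.96 to 0.99.

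Group means of all 19 arrays were fitted with limma 3.58.1 in R 4.3.3, with two-sided tests adjusted over 13320 genes (Benjamini-Hochberg) and called at an adjusted p under 0.05. The fits were tested on simulated data. Members and gene lists were chosen with earlier results of these data known. Named were the 5 genes, the nearest 3 profiles per gene, up to 4 called genes per related list by the size of the E12.5 lens minus body difference, and Mip, Bfsp2, Cryaa, Crygb and Pax6. Ank3, Nfasc, Pcnt, Inpp5b, Pip5k1c and Tmcc1 were named after their values were seen. Alternatives were a fit of the compared arrays alone, arrays centred on their median, an offset of 16, no filter, the mean over probe sets, a robust intensity trend, blocks for replicate number and control-signal set, and leaving out each array. Replicate numbers were not taken to pair the groups tested, since no tested comparison had every same-number correlation of deviations over 0.1. These were -0.08, 0.03 and -0.05 for tooth germ and body, 0.09, -0.06 and -0.10 for the bodies, -0.51, -0.18 and -0.26 for E12.5 lens and body, and 0.50, -0.03 and 0.33 for E12.5 and E10.5 lens. For E12.5 and E11.5 lens, which were not tested against each other, they were 0.61, 0.64 and 0.40. Replicate 3 of E10.5 was kept in and also left out. Promoter sequences are RefSeq's; protein sequences were not used here. All columns were used.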

Additional observations from a re-analysis of the deposited data

Results flagged for a closer look

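For several genes the arrays of one tissue all lay above whole body and those of another all lay below, and the difference between the comparisons was not tested. The values are those of main probe sets. Over all tested genes, 19.6% had every E12.5 lens array above every body and 31.7% had every tooth germ array below. The share of genes with both was not counted, nor was that of the reverse pattern or of E11.5 lens arrays below body. How common such patterns are among all genes is therefore not known. Nrcam was 3.01 log2 units above body in the E12.5 lens and differed by -0.84 in tooth germ. Tmcc3 was 2.23 above body in the E12.5 lens and differed by -0.69 in tooth germ, on its main probe set. Rcan2 was 0.59 above body in the E12.5 lens, and its differences from body were -2.26 in the E10.5 lens, -2.33 in the E11.5 lens and -3.79 in tooth germ. The lens stages share their 4 body arrays, so these 3 lens values are not independent. Among the related genes, Pi4k2a, a phosphatidylinositol kinase gene, differed by 0.63 in the lens and -0.17 in tooth germ, and Lnpk by 1.23 and -0.90. Rcan1 differed by 1.34 and -0.85. Nfatc4 ran the other way, at -1.32 in the lens and 1.08 in tooth germ. No body group of 4 arrays held a value of the 5 genes far enough from the rest to be singled out by Dixon's test.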

How the results depend on the processing

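The tooth germ call of Rcan2 held under all 13 alternatives run for it. In a fit of the compared arrays alone, Nrcam (-0.84), Zfp365 (0.88) and Tmcc3 (-0.69) were also called between tooth germ and body, and Zfp365 (0.58) between the bodies. The Zfp365 means of both body groups were below the absent-target level. That gene passed the signal filter only with its lens arrays, so its calls are not read as results. With the mean over probe sets, the tooth germ difference of Tmcc3 turned to 0.03, Tmcc3 (0.40) and Rcan2 (0.41) were no longer called between the bodies, and the lens rise was 2.17 for Nrcam and 1.74 for Rcan2. Leaving out single arrays gave 1.57 to 1.71 for Nrcam between the bodies, with its call lost without tooth-series body array 1 or 2. Within the arrays of low control signal the rise was 2.36 for Nrcam, 2.89 for Pip5kl1, 3.09 for Zfp365 and 1.82 for Rcan2 (2.85 over all arrays). Within those of high control signal the E12.5 excess of Rcan2 over body was 0.22, against 0.59. Of the related genes, the 5 called higher in the lens became 8 with centred arrays. The 4 called lower became 8 with the mean over probe sets, 7 with the control-signal block and 2 within the low set. The 8 above body became 4 within the high set. In tooth germ the 5 higher became 9 with centred arrays, 8 with the mean over probe sets and 3 without body array 3 (tooth series), and the 19 lower became 12 with centred arrays. The within-set comparisons were added after seeing the data. The control-signal block could not be fitted for the tooth series, where it coincides with the groups. With a replicate block, 1 of the 5 genes was called between tooth germ and body (Rcan2, -3.79) and 3 between the bodies, and no call of these genes changed. The cause of the other changes was not tested. Low levels are limited by background, since arrays 1 and 2 of E10.5 averaged below the absent-target level for 3 of the 5 genes.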
